A study of Mus musculus with 8 samples.

Results

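The genes described here are those of the interferon response and of antigen presentation by the major histocompatibility complex (MHC). They were chosen by symbol: every gene whose name begins with H2-, Ifi, Ifn, Irf, Oas, Gbp or Isg, or with Stat and a digit, together with Tap1, Tap2, Tapbp, Psmb8, Psmb9, Psmb10, B2m, Bst2 and Usp18. The array named 19057 genes by a single symbol, and 143 of them met this rule, with 251 probes. Only probes whose detection p fell under 0.05 on 2 or more arrays out of 8 were tested. That left 93 of the 143 genes and 152 of their probes.

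Expression was measured on Illumina BeadChips in adult mouse kidney cells retained by magnetic beads against CD31, the endothelial surface protein encoded by Pecam1. Mutant mice carried the KST264 gene-trap insertion on both copies of Crim1, the gene of a membrane protein that binds bone morphogenetic proteins. Controls were wildtype, and mice of both genotypes were adults of C57B6/CD1 strain. The 4 mutant arrays came from 2 males (numbers 2 and 4) and 2 females (numbers 1 and 3), and the 4 wildtype arrays likewise. The allele was carried in every cell and not only in endothelium. The labels speak of pairs of mice without saying whether every array had its own animal; p-values therefore measure only the spread among these samples, and that spread may be technical. The labels give no H2 haplotype for this mixed strain.

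Crim1 itself stood at 4.67 and 4.88 in mutant males and at 5.82 and 5.82 in mutant females, against 7.66 and 6.97 in wildtype males and 7.98 and 7.91 in wildtype females, in normalized log2 intensity, the scale of all levels given here. It was lower in mutants by 2.33 (SE 0.17, adjusted p = 0.037). Xist was detected on the 4 female arrays alone and Eif2s3y on the 4 male arrays alone, as the labels have it. The median raw signal ran from 83.2 to 98.5 and the share of probes detected from 45.1% to 48.7%. On the second principal component, which held 18.4% of the variance, mutant male 2 had a score of 53.8, with the remaining arrays between -39.9 and 3.47. The endothelial markers Pecam1 and Cdh5 were detected on every array. So were the macrophage genes Csf1r, C1qa and Adgre1 and the T cell gene Cd3e.

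Interferons are secreted proteins that cells release on infection. Type I interferons bind the receptor of Ifnar1 and Ifnar2, interferon gamma binds the receptor of Ifngr1 and Ifngr2, and both act through Jak kinases on Stat and Irf transcription factors. These bind response elements in the promoters of antiviral genes and of MHC genes. MHC class I heavy chains, together with B2m, show peptides from inside the cell to T cells; the peptides are cut by immunoproteasome subunits (Psmb8, Psmb9, Psmb10), pumped by Tap1 and Tap2 and loaded with the help of Tapbp. MHC class II chains show peptides from outside the cell and are best known from dendritic cells, macrophages and B cells. In the kidney, endothelium carries class I on its surface.

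Stretches of 60 bases from promoters of 8 of these genes are shown. These genes stand for the effectors, a factor, class I and class II, which are described in turn below. In the first 4, capitals mark matches to the core of the interferon-stimulated response element (GAAA and GAAA with any 2 bases between them) on either strand; overlapping matches run together.
Isg15: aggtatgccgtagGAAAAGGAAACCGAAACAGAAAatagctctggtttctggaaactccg
Bst2: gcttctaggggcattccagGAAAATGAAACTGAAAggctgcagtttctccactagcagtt
Stat2: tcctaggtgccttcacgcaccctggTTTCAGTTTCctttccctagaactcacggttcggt
B2m: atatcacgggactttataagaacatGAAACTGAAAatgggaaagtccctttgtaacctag
In the next 4, from MHC heavy chain and class II genes, capitals mark the Y box, ATTGG, on either strand.
H2-K1: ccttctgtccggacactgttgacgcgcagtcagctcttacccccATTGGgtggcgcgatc
H2-D1: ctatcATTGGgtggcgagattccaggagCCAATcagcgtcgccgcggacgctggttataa
H2-Aa: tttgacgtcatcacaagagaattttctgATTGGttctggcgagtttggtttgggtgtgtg
H2-Eb1: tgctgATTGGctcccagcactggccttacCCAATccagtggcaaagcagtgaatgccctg

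The sequences are those of RefSeq on GRCm38.p6. They lie at chr4:156200850-156200909 on the minus strand for Isg15, chr8:71537562-71537621 on the minus strand for Bst2, chr10:128270251-128270310 on the plus strand for Stat2 and chr2:122147523-122147582 on the plus strand for B2m. The MHC stretches lie at chr17:34000348-34000407 on the minus strand for H2-K1, chr17:35263013-35263072 on the plus strand for H2-D1, chr17:34287840-34287899 on the minus strand for H2-Aa and chr17:34305803-34305862 on the plus strand for H2-Eb1. A promoter window of 250 bases before to 50 after the start was found for 79 of the 93 tested genes. The response element core was in the window of 30.4% of these 79 genes and of 15 of 27 interferon-induced effectors (55.6%), against 3.99% of the 27025 genes with a window. The gamma-activated site TTCNNNGAA, also read on either strand, was in 29.1% of the tested genes, against 9.55% of all. The Y box was in 55.7%, against 41.1% of all, and it was present in 2 of 2 classical class I, 8 of 8 other class I, 8 of 8 class II and 4 of 6 peptide loading genes. These are matches of letters and not sites of measured binding.

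Between mutant and wildtype cells, none of the 93 genes passed an adjusted p of 0.05, over both sexes together or within either. Of all 12476 named genes tested, 5 passed between genotypes (0.0401%), and 0 (0%) passed within males, within females or for the difference between them. Without adjustment, 16 of the 93 genes had a p under 0.05 and were lower in mutants, where 4.45% of all genes were, and 2 were higher, where 3.93% of all genes were. With the sample number as a block, these counts were 19 and 1, and without a sex term they were 4 and 1. Of the 2 higher genes, Ifna15 was detected on mutant males alone and entered the test through them. The 93 genes had a median difference of -0.17 with 66 below 0, against a median of 0.02 over all genes. Without mutant male 2, the 16 became 11; they became 7 without mutant female 1, 8 without wildtype female 3 and 8 without wildtype male 4.

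The same counts were taken within each sex. Among males, 25 of the 93 genes were lower in mutants with an unadjusted p under 0.05 (5.86% of all genes) and 1 was higher (5.19% of all). The 1 higher gene, Ifna15, was detected on mutant males alone and entered the test through them, so it is no evidence of a difference. Among females, 0 were lower (1.71% of all) and 1 was higher (2.15% of all). The difference of the male from the female genotype effect had an unadjusted p under 0.05 and a negative sign in 15 genes (3.46% of all) and a positive one in 0 (3.32% of all); its smallest adjusted p among the 93 genes was 0.656. The median difference was -0.33 in males and -0.02 in females. Without wildtype male 4 the 25 became 13 and the 15 became 7; the 15 became 8 without wildtype female 1 and 9 without mutant female 3. Leaving out mutant male 2 gave 22 and 16.

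**Figure D1:**
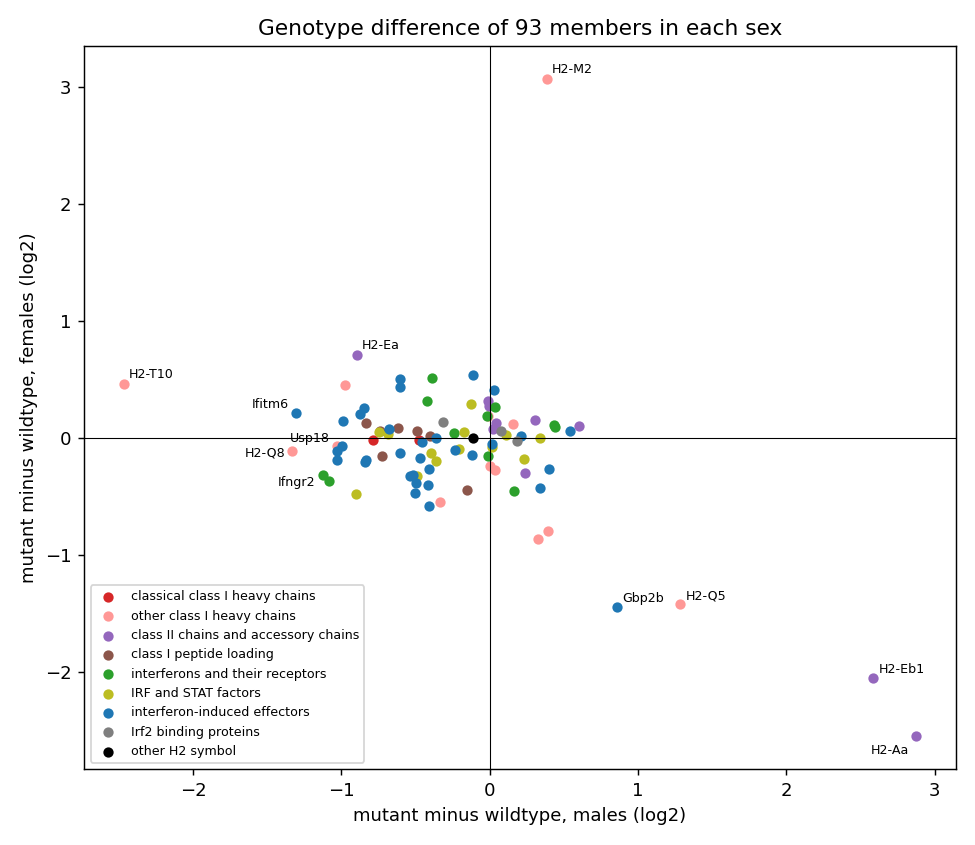
Mutant minus wildtype difference (log2) of each of the 93 tested genes in males (horizontal axis) and females (vertical axis), coloured by role. Most points lie left of 0 and close to 0 on the vertical axis, with medians of -0.33 in males and -0.02 in females; H2-M2, H2-T10, H2-Q5, Gbp2b, H2-Eb1 and H2-Aa lie far out.

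In 30 of the 93 genes (32.3%), both wildtype male arrays lay above the other 6 arrays, against 7.94% of all genes. This count was chosen after the values were seen. With mutant male 2 left out it was 37 (39.8%), against 10.7% of all genes. With no array left out, the 30 genes held 2 of 2 classical class I heavy chains, 5 of 7 peptide loading genes and 15 of 33 interferon-induced effectors, but 0 of 10 class II genes. Endothelial markers had the same order of arrays more often still, in 16 of the 20 tested from a list of 22. Their summed linear level ran from 57856.8 to 107339.8 on mutant arrays and from 72078.5 to 172628.6 on wildtype arrays; 18 to 20 of them were detected on any array. The median endothelial marker stood, relative to its mean over 8 arrays, at -0.66 and 0.32 in mutant males and -0.43 and -0.25 in mutant females, against 0.61 and 1.00 in wildtype males and -0.31 and -0.11 in wildtype females. Its difference between genotypes was -0.57, with -0.95 in males and -0.18 in females. Neutrophil markers, of which 6 of 9 were tested, had a median difference of -0.17 between genotypes, with -1.10 in males, where 6 of 6 lay below 0, and 0.46 in females; 0 of them had an unadjusted p under 0.05 in either sex. Their summed linear level was 2524.0 and 566.4 in mutant males, against 2622.7 and 2299.4 in wildtype males, so mutant male 4 alone stood apart among males. The part of endothelial or neutrophil content in the results on interferon and class I genes was not tested. In such sorted bulk RNA, fewer cells of a type and less RNA per cell cannot be told apart.

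**Figure D2:**
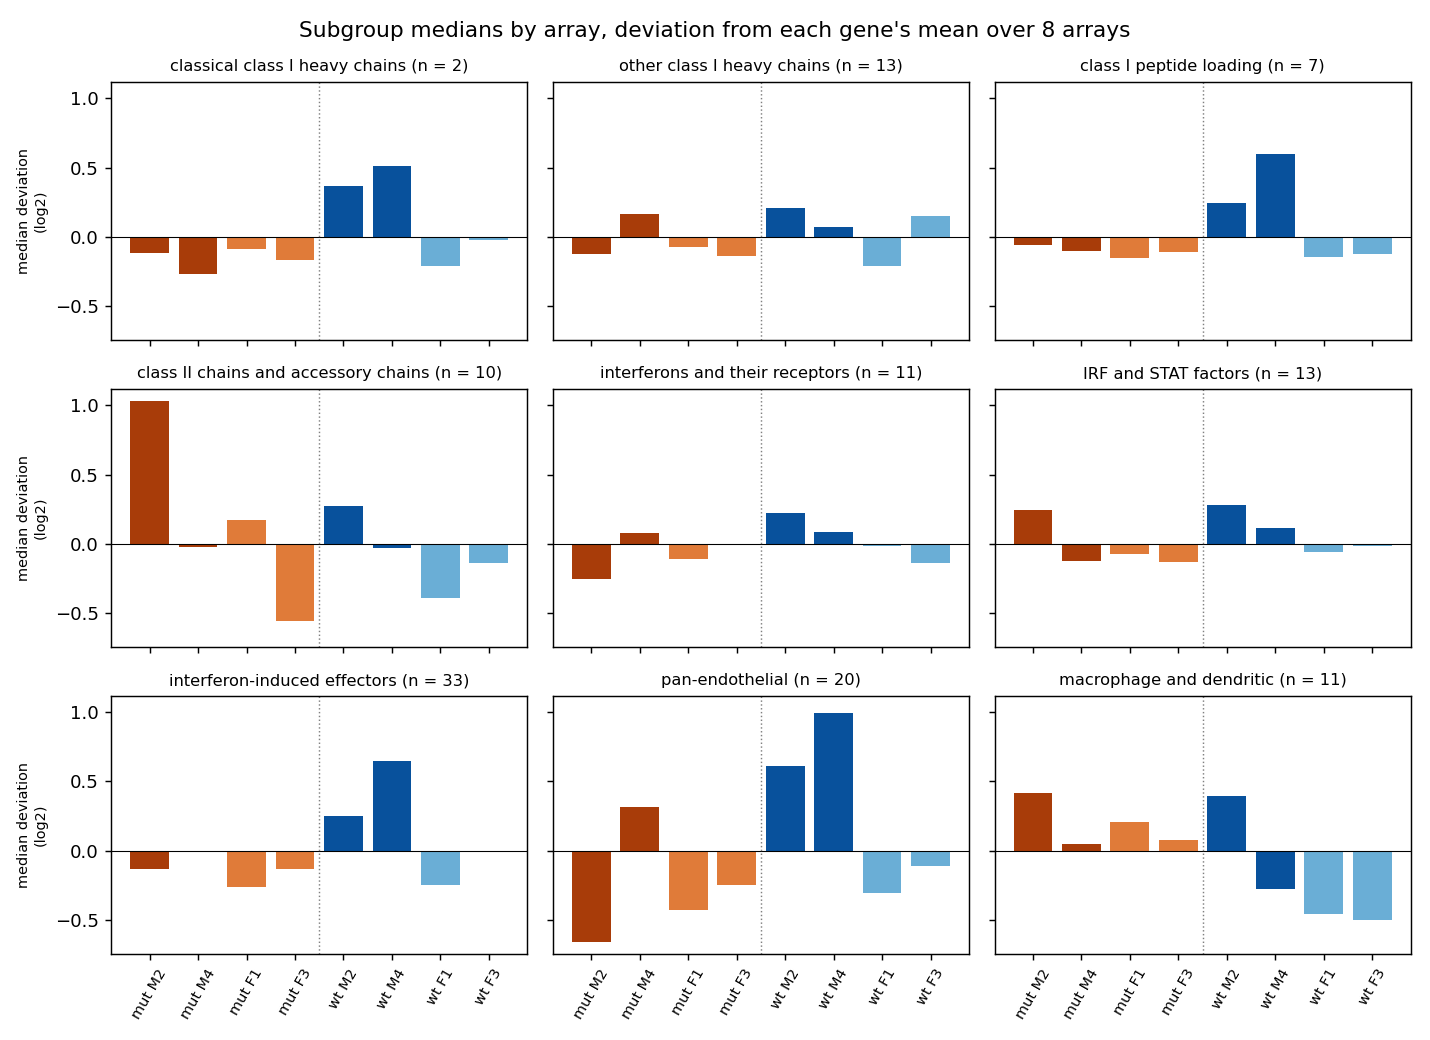
Median deviation of each subgroup's genes from their own mean over 8 arrays (log2), by array, for the 7 roles and for the endothelial and macrophage marker lists; n is the number of genes. Bars for classical class I, peptide loading, effectors and endothelial markers are highest on the 2 wildtype male arrays, at 0.25 and 0.60 for peptide loading; those for class II genes are not.

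Interferon receptors held the gene with the smallest p. Ifngr2, the signalling chain of the interferon gamma receptor, stood at 8.57 and 8.93 in mutant males and 8.72 and 8.80 in mutant females, against 9.79 and 9.96 in wildtype males and 9.16 and 8.99 in wildtype females. All 4 mutant arrays lay below all 4 wildtype arrays, the only one of the 93 genes for which this held; 1.23% of all genes did so, and 1.82% had every mutant array above. The difference was -0.72 (SE 0.12, adjusted p = 0.33), with -1.12 in males and -0.32 in females. The gene's other 2 probes gave 0.04 and 0.13, so the difference rests on a single probe.

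Ifnar2, the type I receptor chain, stood at 7.20 and 8.29 in mutant males and 7.19 and 7.84 in mutant females, against 8.54 and 9.12 in wildtype males and 7.97 and 7.77 in wildtype females. The genotypes overlapped, and the difference of -0.72 (SE 0.28) had an adjusted p of 0.53; its other 2 probes gave -0.69 each. Without mutant male 2 the difference was -0.45. Ifngr1, which binds the interferon gamma molecule, differed by -0.05 over both sexes, with -0.42 in males and 0.32 in females. Ifnlr1, the chain specific to lambda interferons, went the other way, with 7.78 and 8.26 in mutant males against 7.52 and 7.66 in wildtype males, and a difference over both sexes of 0.27 (SE 0.15, adjusted p = 0.702).

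Most interferons themselves were dim. Of the 25 genes of this role, 11 were tested, and 14 were not, among them Ifnb1, Ifnar1 and most of the alpha interferons. Ifna6 and Ifnab were detected on all 8 arrays. Ifna6 stood between 6.52 and 7.09 on mutant arrays, against 6.62 to 6.91 on wildtype arrays, and Ifnab between 6.503 and 7.41 on mutant arrays, against 6.52 to 7.63 on wildtype arrays, with overlapping genotypes in both. Ifna15 was above background on 2 of 4 mutant arrays, both male, and on 0 of 4 wildtype arrays; its levels were 5.37 and 5.38 in mutant males, 4.81 and 5.06 in wildtype males, and 4.89 to 5.09 in females of both genotypes. Ifng, the interferon made mainly by T and NK cells, stood at 6.99 on mutant male 2, at 5.04 to 5.42 on the other mutant arrays, and at 4.70 to 6.31 on wildtype arrays. It was detected on 2 mutant and 3 wildtype arrays. On mutant male 2 the median T and NK marker was 1.16 above its mean, the highest of the 8 arrays, where the other 7 ran from -0.77 to 0.54.

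Among the transcription factors, 9 of 13 lay below 0 between genotypes and the median was -0.15. Stat2, which acts downstream of type I receptors, stood at 5.99 and 6.42 in mutant males and 6.26 and 6.99 in mutant females, against 7.16 and 7.04 in wildtype males and 6.92 and 7.27 in wildtype females. The difference was -0.69 (SE 0.20, adjusted p = 0.413) and had the same sign in both sexes, -0.90 in males and -0.47 in females; only mutant female 3, at 6.99, reached into the wildtype range.

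Irf1, a factor induced by interferon gamma, stood at 12.001 and 12.13 in mutant males and 12.27 and 12.27 in mutant females, against 12.74 and 12.89 in wildtype males and 12.29 and 12.14 in wildtype females. The wildtype males stood apart from the other 6 arrays, which spanned 12.001 to 12.29. Its difference was -0.75 in males (SE 0.15, adjusted p = 0.2) and 0.06 in females. Its 5 probes gave differences of -0.75 to -0.48 in males.

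Irf9, which joins Stat2 in a DNA-binding complex, differed by -0.28 (SE 0.14), and Irf7, which amplifies type I interferon production, by -0.41 (SE 0.33), both with overlapping genotypes. Stat5a, a mediator of cytokine and growth hormone signals, and Stat6, of interleukin-4 signals, lay at 0.17 and 0.07. Irf5, a factor of myeloid cells, lay at -0.26.

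On the brightest probe of both classical class I heavy chains, as for Irf1, the 2 wildtype males were the highest arrays. H2-D1 stood at 13.95 and 13.66 in mutant males and 14.15 and 14.24 in mutant females, against 14.50 and 14.68 in wildtype males and 14.23 and 14.18 in wildtype females. Both mutant males were the lowest of the 8 arrays and both wildtype males the highest, while females of the 2 genotypes overlapped. The difference was -0.78 in males (SE 0.16, adjusted p = 0.209) and -0.01 in females, and -0.40 over both (SE 0.12, adjusted p = 0.419). Its other 2 probes gave -0.92 and -1.27 in males.

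H2-K1 stood at 10.97 and 10.97 in mutant males and 10.82 and 10.59 in mutant females, against 11.38 and 11.50 in wildtype males and 10.51 and 10.93 in wildtype females. It differed by -0.48 in males (SE 0.19, adjusted p = 0.405) and -0.02 in females. Its dimmer probes gave -0.68 and -0.20 in males, and on neither were both wildtype males the highest arrays. On the first, wildtype male 2 stood at 6.37 and mutant male 4 at 6.42. On the second, wildtype male 4 stood at 7.69 and mutant male 4 at 8.25.

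**Figure D3:**
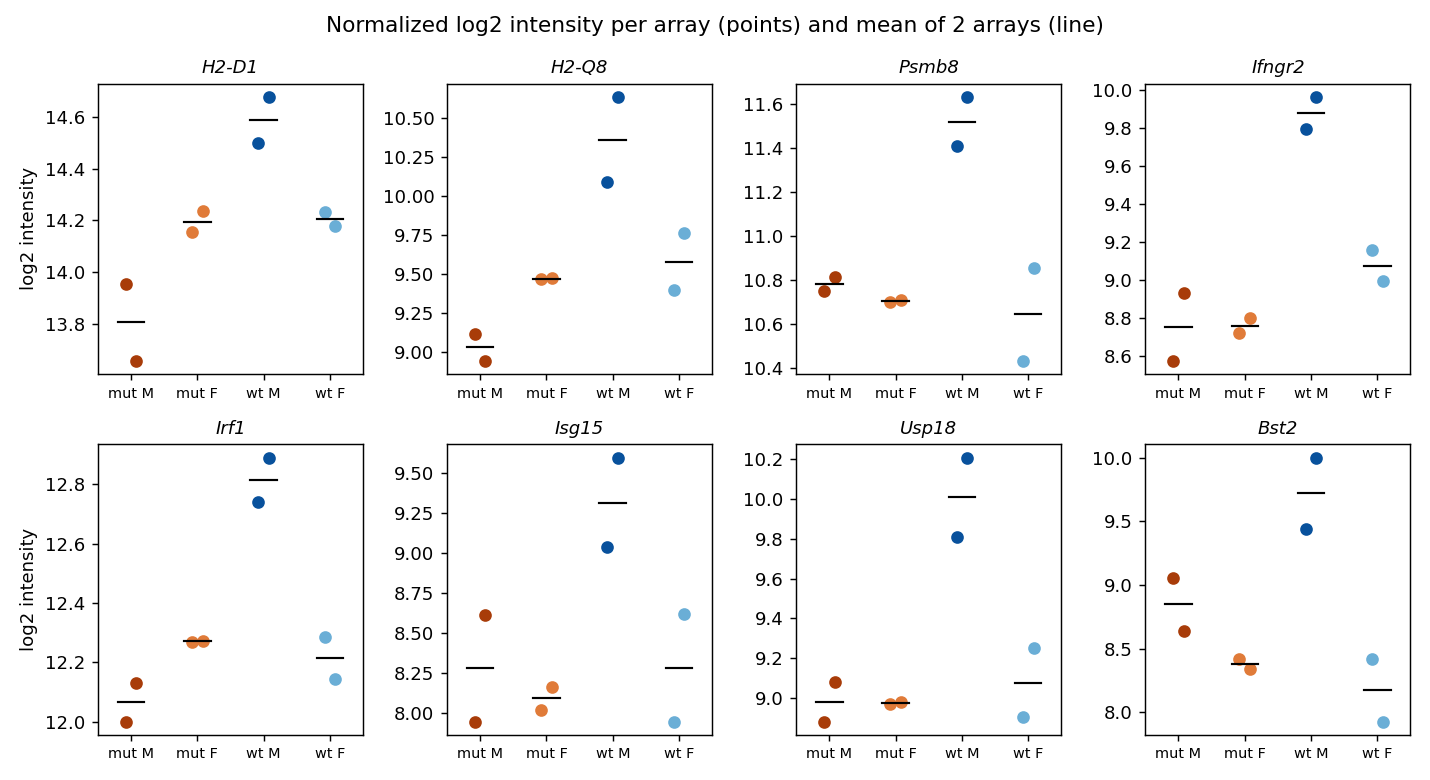
Normalized log2 intensity of 8 genes on each array (points) with the mean of the 2 arrays of a group (line), for mutant males, mutant females, wildtype males and wildtype females. In every panel both wildtype male points lie above the other 6, and for H2-D1 they are 14.50 and 14.68. All 8 genes shown are among the 30 of the 93 with this order of arrays, so the panels do not stand for the other genes.

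Peptide loading genes lay below 0 between genotypes in 7 of 7, with a median of -0.30, and also in 7 of 7 within males, where 5 had an unadjusted p under 0.05 and the median was -0.62. In females the median was 0.06. Over all genes, 45.7% lay below 0 between genotypes and 45.5% within males. Within males, 5.86% of all genes and 14 of 20 endothelial markers were lower with an unadjusted p under 0.05. The immunoproteasome subunit Psmb8 stood at 10.75 and 10.81 in mutant males and 10.70 and 10.71 in mutant females, against 11.41 and 11.63 in wildtype males and 10.43 and 10.86 in wildtype females. The 4 mutant arrays thus spanned 10.70 to 10.81, inside the range of wildtype females, and the wildtype males stood above. The difference was -0.74 in males (SE 0.19, adjusted p = 0.243) and 0.06 in females.

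Psmb10, another subunit of the same particle, gave -0.84 in males and 0.13 in females, and the peptide pump chain Tap2 gave -0.62 and 0.09. B2m, the light chain of all class I molecules, was bright and narrow, at 14.43 to 14.53 on mutant arrays, against 14.83 and 14.99 in wildtype males and 14.45 and 14.47 in wildtype females; it differed by -0.40 in males (SE 0.14, adjusted p = 0.366). Tap1 was dimmer and varied more, with 5.23 on mutant female 1 and 6.13 to 6.76 on the other 7 arrays. A single dimmer probe of Tapbp opposed the rest of the role, at 0.83 between genotypes where the gene's brighter probe gave -0.21.

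Interferon-induced effectors were the most numerous role, with 33 of 55 genes tested. Of the 33, 28 lay below 0 between genotypes, where 45.7% of all genes did, with a median of -0.32. That median was -0.19 without wildtype male 4, -0.15 in the authors' values and -0.083 with no filter on dim probes. Of the 33, 8 had an unadjusted p under 0.05 and a lower level in mutants, and 0 a higher one. In males 26 lay below 0 with a median of -0.50, and in females 21 with a median of -0.10. No effector passed after adjustment; the smallest adjusted p between genotypes was 0.376.

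That value belonged to Usp18, a protease that strips Isg15 from proteins and dampens type I signalling. It stood at 8.88 and 9.08 in mutant males and 8.97 and 8.98 in mutant females, against 9.81 and 10.21 in wildtype males and 8.90 and 9.25 in wildtype females. The mutant arrays and the wildtype females lay within 8.88 to 9.25, with wildtype males above them all. It differed by -0.57 over both sexes (SE 0.14), by -1.03 in males and by -0.10 in females; the other probe gave -0.65 in either sex.

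Isg15, the ubiquitin-like protein whose promoter is shown above, stood at 7.95 and 8.61 in mutant males and 8.02 and 8.17 in mutant females, against 9.03 and 9.59 in wildtype males and 7.95 and 8.62 in wildtype females. It differed by -1.03 in males (SE 0.32, adjusted p = 0.319) and -0.19 in females. Oasl2, a member of the oligoadenylate synthetase family, differed by -0.99 in males and 0.15 in females. The membrane proteins Ifitm1 and Ifitm3, which block virus entry, differed over both sexes by -0.53 and -0.51, though a dimmer Ifitm1 probe had the opposite sign. The guanylate-binding proteins Gbp5 and Gbp7 differed by -0.44 and -0.43 and Oas1g by -0.52. Ifi27l2a, induced by type I interferon, differed by -0.33 (SE 0.13).

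The widest difference between genotypes on the higher side was that of H2-M2, a nonclassical class I gene. It stood at 9.30 and 5.97 in mutant males and 9.37 and 8.22 in mutant females, against 7.56 and 6.94 in wildtype males and 5.66 and 5.79 in wildtype females. Mutant male 4 lay within the wildtype range and the other 3 mutants above it. The difference was 1.73 (SE 0.68, adjusted p = 0.531); in females it was 3.07 and in males 0.38, and without mutant male 2 it was 0.90.

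Of the 13 other class I heavy chains, 10 lay below 0 between genotypes with a median of -0.20, while within males 6 did with a median of 0.00. H2-Q8 stood at 9.12 and 8.94 in mutant males and 9.47 and 9.47 in mutant females, against 10.09 and 10.63 in wildtype males and 9.40 and 9.76 in wildtype females. It differed by -0.72 (SE 0.16, adjusted p = 0.352), but a dimmer probe gave -0.14. H2-M3, which presents formylated bacterial peptides, differed by -1.03 in males (SE 0.23, adjusted p = 0.231) and -0.07 in females. H2-Bl differed by -0.98 in males and 0.46 in females. Mutant males stood at 5.39 and 4.83, against 5.56 and 6.61 in wildtype males. Females stood at 6.68 and 6.69 in mutants, against 6.34 and 6.11 in wildtype. Its lowest values were thus on mutant males 2 and 4, wildtype male 2 and wildtype female 3. These arrays also set other H2 probes apart without regard to genotype, as described below. Genes of the H2, Ifi2, Gbp and Oas families have near-identical copies, so a probe may also read a relative of the gene it is named for.

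**Figure D4:**
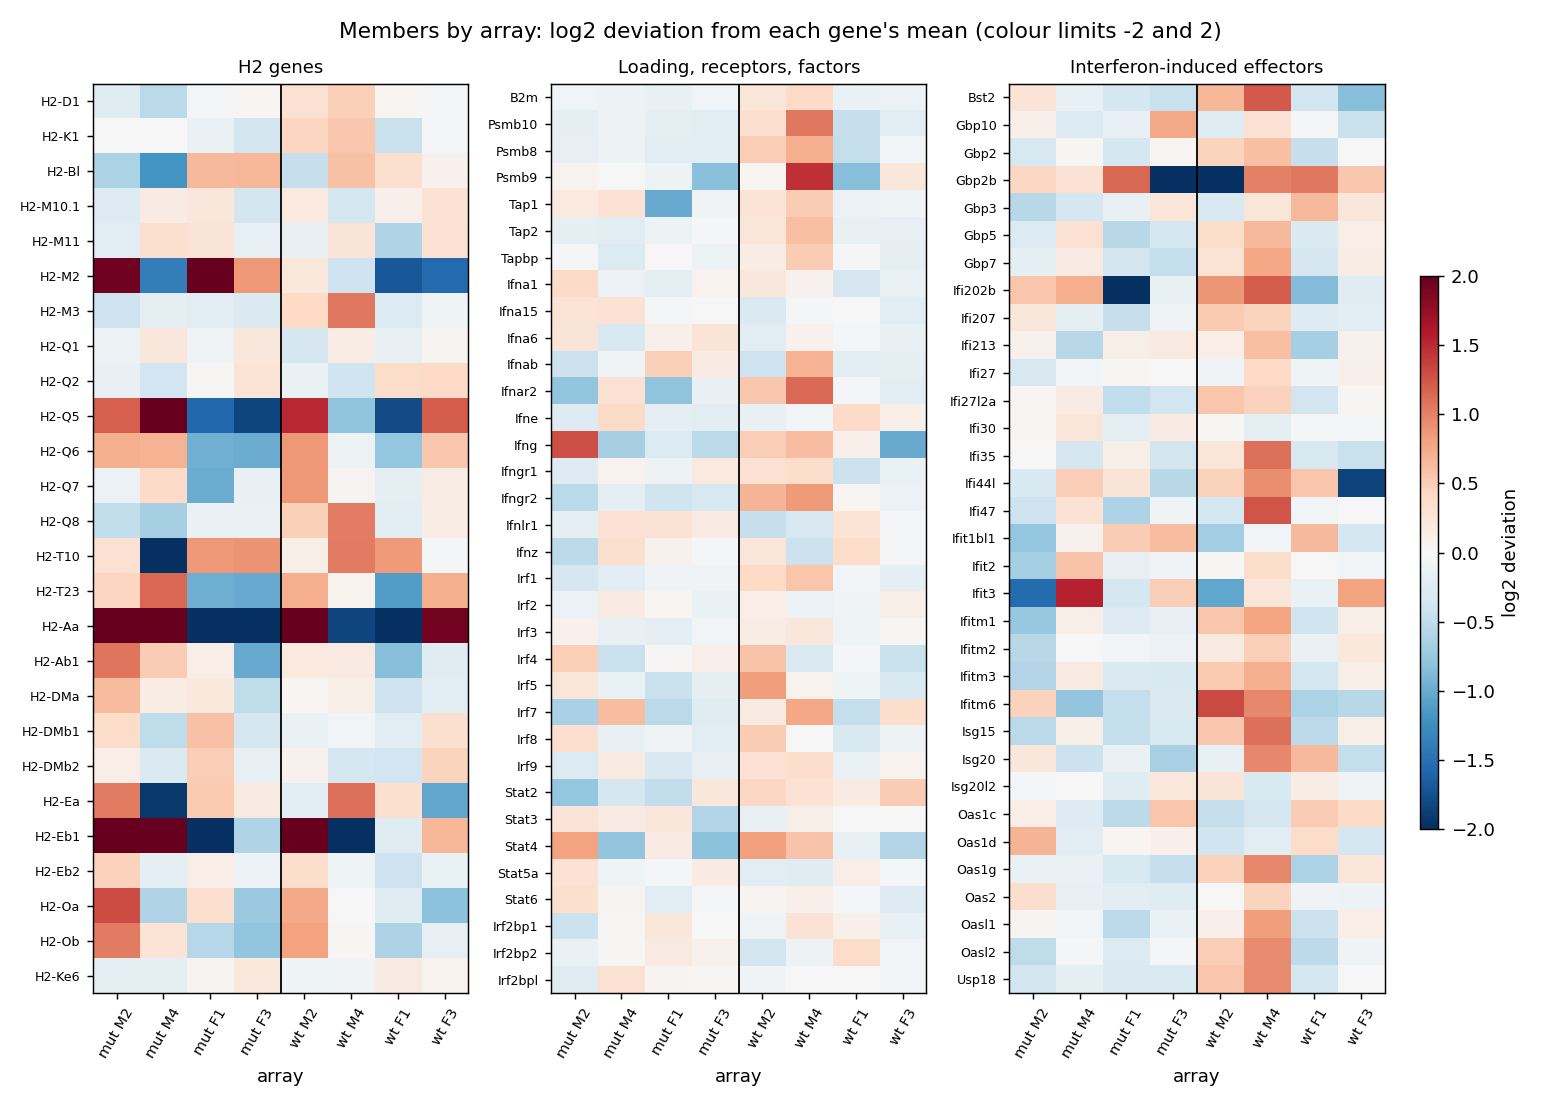
Log2 deviation of each of the 93 genes from its own mean, by array (mutant arrays left of the black line, wildtype right), with colour limits at -2 and 2. Loading genes and effectors are reddest on the 2 wildtype male columns, while H2-Aa, H2-Eb1, H2-Q5 and H2-T23 differ from array to array within each genotype.

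Class II genes lay mostly on the other side of 0. Of 10 tested, 8 stood above 0 between genotypes, where 6770 of all 12476 named genes did, with a median of 0.14. Of the 10, 0 had an unadjusted p under 0.05. H2-Ab1, the beta chain of H2-A, stood at 12.99 and 12.43 in mutant males and 12.06 and 10.91 in mutant females, against 12.12 and 12.10 in wildtype males and 11.06 and 11.69 in wildtype females. It differed by 0.36 (SE 0.28, adjusted p = 0.828), and the genotypes overlapped in females. H2-DMa, a chain of the peptide exchange factor of class II, differed by 0.23 (SE 0.19), and H2-Ob, of the protein that restrains that factor, by -0.03. The class II median was -0.02 without mutant male 2. Macrophage and dendritic cell markers, of which 11 of 18 were tested, had a median difference of 0.33, with 0.77 in females and 0.09 in males. Their summed linear level ran from 5535.2 to 8788.2 on mutant arrays and from 4207.2 to 8796.5 on wildtype arrays, and their part in the class II levels was not tested.

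A few H2 probes were near background on some arrays and bright on others, without regard to genotype; they were singled out after their values were seen. H2-Aa, the alpha chain of H2-A, stood at 11.27 and 11.59 in mutant males and at 4.69 and 4.79 in mutant females, against 10.95 and 6.17 in wildtype males and 4.63 and 9.94 in wildtype females. It was not detected on either mutant female or on wildtype female 1. The spread of H2-Aa within groups was the widest of the 93 genes (SD 2.53), and its genotype difference of 0.16 had an SE of 1.35. H2-Eb1, the beta chain of H2-E, stood at 11.53 and 11.73 in mutant males and 6.46 and 8.92 in mutant females, against 11.67 and 6.42 in wildtype males and 9.28 and 10.19 in wildtype females.

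The same 4 arrays, mutant males 2 and 4, wildtype male 2 and wildtype female 3, carried the high values of some class I probes too. They carried the low values of others. One of the 3 probes of H2-T23, the mouse gene of Qa-1, was detected on these 4 arrays only, at 10.97 to 12.06, and stood at 4.75 to 5.28 on the others. The gene's brightest probe stood at 11.55 and 12.28 in mutant males and 10.15 and 10.12 in mutant females, against 11.85 and 11.19 in wildtype males and 10.01 and 11.84 in wildtype females. A dim probe of H2-T10 was detected on the same 4 arrays, at 7.10 to 8.05. H2-Q5 stood at 12.23 and 13.13 in mutant males and 9.47 and 9.20 in mutant females, against 12.55 and 10.24 in wildtype males and 9.26 and 12.25 in wildtype females, again highest on these 4. These are values of the brighter H2-Q5 probe. The gene's other probe was lowest on the 4 arrays, at 4.64 to 5.31, against 5.85 to 6.43 on the rest. The brightest H2-T10 probe was also lowest there, at 5.93 to 10.32, against 10.87 to 11.05, and so was H2-Bl. Both H2-Q6 probes were highest there. H2-Ab1, H2-D1 and B2m did not split the arrays in this way.

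**Figure D5:**
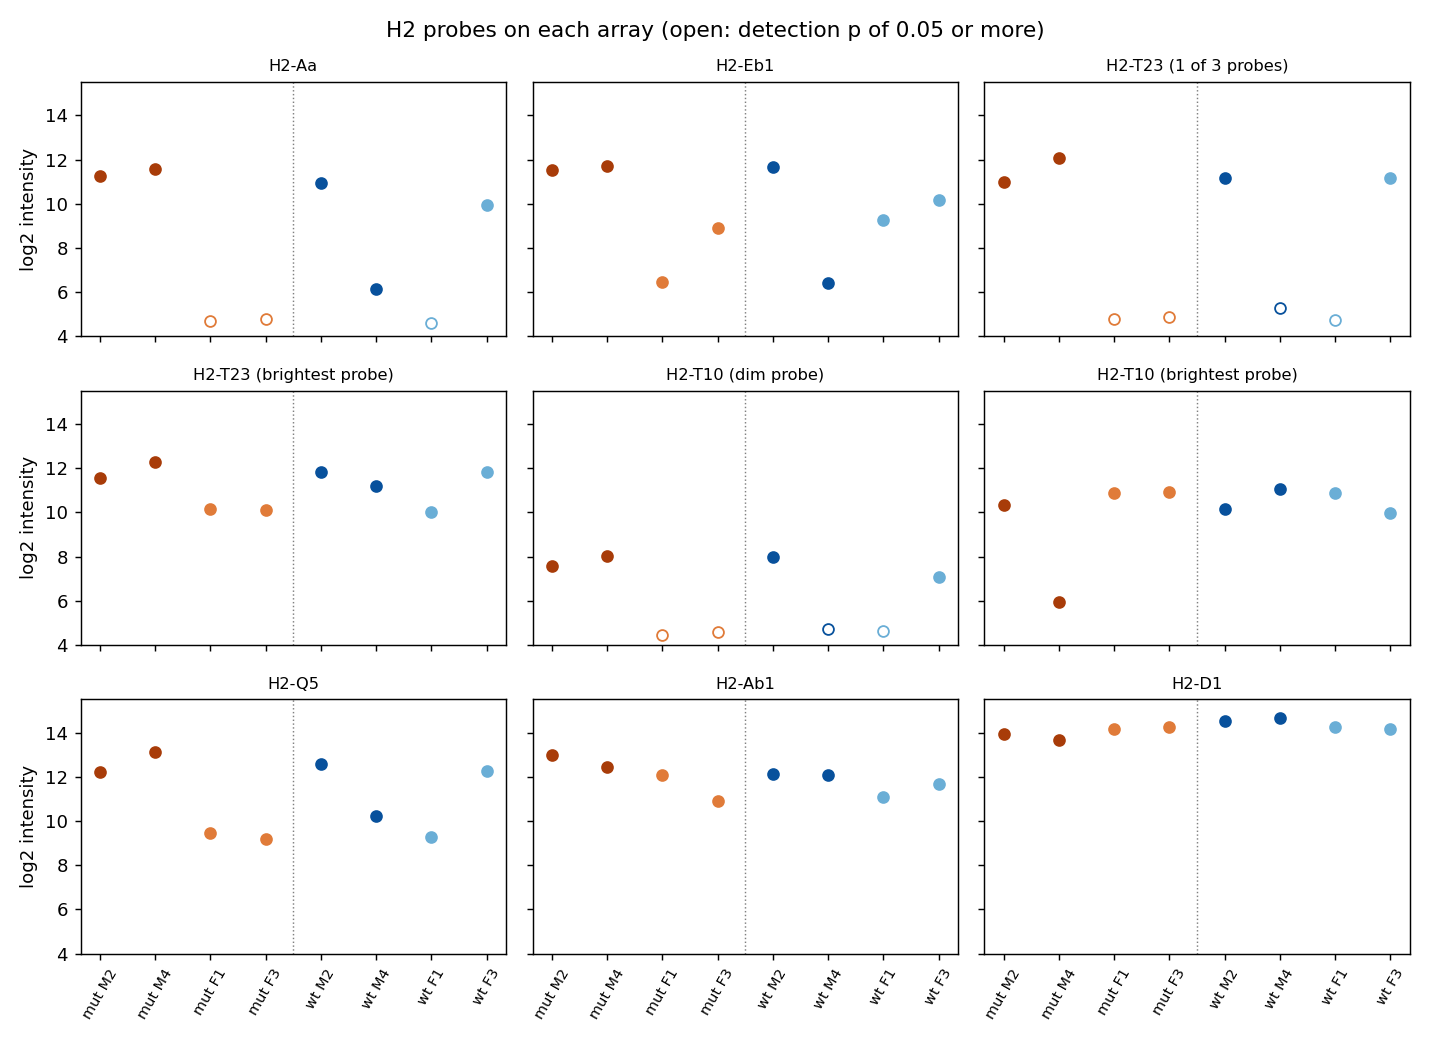
Normalized log2 intensity of 9 H2 probes on each array, mutant arrays left of the dotted line and wildtype arrays right; open points have a detection p of 0.05 or more. H2-Aa, H2-Q5, 1 H2-T23 probe and the dim H2-T10 probe are high on mutant males 2 and 4, wildtype male 2 and wildtype female 3, whereas H2-D1 stays between 13.66 and 14.68.

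Between males and females, with both genotypes weighted equally, 1 of the 93 genes passed, where 3.73% of all genes did. It was Bst2 (tetherin), which holds budding viruses at the cell surface. Bst2 stood at 9.06 and 8.64 in mutant males and 9.44 and 10.002 in wildtype males, against 8.42 and 8.34 in mutant females and 8.42 and 7.93 in wildtype females. Every male array lay above every female array, and Bst2 was higher in males by 1.01 (SE 0.19, adjusted p = 0.0429). How many of all genes separated the sexes in this way was not counted. The adjusted p was between 0.0537 and 0.127 when any 1 array was left out, so the call was lost each time.

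Without adjustment, 26 of the 93 genes were higher in males with a p under 0.05 (9.97% of all genes) and 5 were lower (11.6% of all). The median difference was 0.26, against -0.02 over all genes. It was 0.60 for class II, 0.48 for peptide loading, 0.38 for effectors and 0.25 for classical class I genes. The arrays that set some H2 probes apart, mutant males 2 and 4, wildtype male 2 and wildtype female 3, were mostly male. Genes with that split are in the counts: H2-Aa at 3.98, H2-Q5 at 1.99, H2-T23 at 1.19, H2-Q6 at 1.09 and H2-Bl at -0.86. H2-Aa is in the class II median too. The part of the split in the sex differences was not tested. H2-Ab1 differed by 0.98 (SE 0.28, adjusted p = 0.123) and Ifi27l2a by 0.61 (SE 0.13, adjusted p = 0.0544). Dimmer H2-Ab1 probes gave 0.92 (adjusted p = 0.23) and 1.23 (adjusted p = 0.0373). A dimmer H2-Q8 probe gave 1.47 (adjusted p = 0.0412), where its brightest probe gave 0.17. Genes were called by their brightest probe, so these probes added no gene to those that passed. Both H2-Ob and the class I gene H2-Q2 are in these counts but entered the test through 1 sex alone. H2-Ob was detected on 3 male arrays and on 0 female arrays, and H2-Q2 on 3 female arrays and on 0 male arrays, so no size is given for either. H2-D1 differed by -0.00, its mutant males being the lowest and its wildtype males the highest of the 8 arrays. Endothelial markers differed by a median of 0.60 and T and NK markers by 0.80 between males and females, and their part in these differences was not tested.

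Other genes of the same pathways were taken from lists of known members. Of 33 tested interferon-induced genes outside the symbol rule, 25 lay below 0 between genotypes with a median of -0.13, and 1 passed. This was Ubd, a ubiquitin-like protein induced by interferon gamma and tumour necrosis factor. It was higher in mutants, at 7.63 and 7.65 in males and 7.53 and 7.38 in females, against 6.06 and 6.34 in wildtype males and 5.95 and 5.60 in wildtype females (1.56, SE 0.13, adjusted p = 0.037). Both wildtype males lay above the other 6 arrays in 11 of the 33. Tubule injury markers stood higher in mutants as well: 8 of 8 tested, from a list of 10, lay above 0 with a median of 0.91, and 7 of them had an unadjusted p under 0.05; their part in the Ubd difference was not tested. Between sexes, Sp100, a nuclear body protein, and Tgtp1, an interferon-inducible GTPase, passed, higher in males by 0.66 and 0.78.

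Of 11 Jak and Stat signalling genes tested, 0 passed in any contrast; between genotypes 2 had an unadjusted p under 0.05, the kinase Tyk2 and the receptor chain Il10rb, both lower in mutants, by 0.25 and 0.34 in size. Of 19 genes of MHC transcription and peptide handling, 0 passed between genotypes. Between sexes Nlrc5 and Creb1 passed, higher in males by 0.77 and 0.78. Nfya also had an adjusted p under 0.05, but its probe was detected on 2 wildtype arrays alone and entered the test through them, so it is not counted as a difference between sexes. Nlrc5, the coactivator of class I genes, stood at 7.12 and 6.87 in mutant males and 6.31 and 6.44 in mutant females, against 7.48 and 7.78 in wildtype males and 6.64 and 6.78 in wildtype females. Within each sex both mutants lay below both wildtype arrays. Within males this held for 2211 of all 12476 named genes, and within females it was not counted. The Nlrc5 difference was -0.49 (SE 0.12, adjusted p = 0.379). Ciita, the corresponding coactivator of class II genes, and Cd74, the class II chaperone, differed by -0.10 and 0.19.

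The 50 genes that were not tested had no probe detected on more than 1 array: 40 were detected on 0 arrays and 10 on 1. These comprised 22 effectors, 14 interferons or receptors, 13 other class I heavy chains and Stat5b. Just inside the limit, with detection on 2 arrays, stood H2-Eb2, Ifna15 and Ifne; just outside it, with 1, stood Ifnb1, Ifih1 and Oas1b among others. A gene could pass through one group alone where it was high there. The remaining 4 tested genes were the Irf2 binding proteins Irf2bp1, Irf2bp2 and Irf2bpl, between -0.09 and 0.08 between genotypes, and H2-Ke6, a metabolic enzyme named for its place in the H2 region, at -0.05.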

How the data were processed

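The deposited table holds a linear intensity and a detection p-value for 45281 probes on each of 8 arrays; per the file headers the p-values are detection values, and no background correction or normalization is visible in the intensities. How the authors' deposited log2 values were made is not stated in the sources used here; they served as an alternative. Columns without a sample numbered 0. RNA came from a micro-scale column kit and biotin-labelled cRNA from an Ambion kit, per the labels' protocols.

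The neqc function was applied to the intensities, which subtracts background by a normexp fit, adds an offset (here 16) and quantile normalizes (limma 3.58.1, R 4.3.3; tables and figures with Python 3.11.15, pandas 2.3.3, matplotlib 3.10.9). The 23841 probes with detection p under 0.05 on 2 or more arrays were tested on the log2 scale with lmFit and eBayes (residual degrees of freedom 4, prior 3.05): a mean for each of 4 groups, and 5 contrasts, of which the genotype effect weights sexes equally, the interaction is the male minus the female genotype effect, and the sex effect is male minus female. Two-sided p-values were adjusted over all tested probes by Benjamini-Hochberg, with a threshold of 0.05; errors are standard errors of the model. The test was checked on simulated data. Arrays have no read depth, and their number limits the precision.

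A gene is its brightest tested probe. The platform annotation named 1 gene for 34885 probes, more than 1 for 18 and left 10378 unnamed; 34807 were checked through Entrez identifiers against the GRCm38.p6 table, none was renamed, and 78 kept their symbol unchecked. Promoters were matched for 117 of the 143 genes.

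The genes and lists were chosen with earlier results of these data known. Named were genes called in any contrast, in each of 7 roles the 3 with the smallest p for genotype and 2 each for the interaction and sex, and a fixed set of well-known genes and markers; the further genes named were chosen after their values were seen. Same-numbered mutant and wildtype arrays deviated together only weakly (correlation of deviations from group means 0.100 in females and 0.269 in males). The labels speak of pairs, but the main tests were not paired. The number entered only as a block in the alternatives that follow. Alternatives were the number as a fixed or random block, median scaling, the authors' values, an offset of 50, no filter, detection on 4 arrays, no sex term, the median over probes, and leaving out each array.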

Additional observations from a re-analysis of the deposited data

Results flagged for a closer look

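Among the 93 tested genes, 8 of 186 groups of 4 arrays held an array whose gap to the nearest of the others, divided by the range, exceeded Dixon's critical value. Chance flags about 1 in 20 groups.

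On mutant male 4, the brightest of 3 H2-T10 probes stood at 5.93, with the other mutant arrays between 10.32 and 10.92. The gene's other 2 probes were at 9.20 and 8.05 there, their highest values on any of the 8 arrays, so the low value is that of 1 probe. The probe at 8.05 is the dim one detected only on mutant males 2 and 4, wildtype male 2 and wildtype female 3. The brightest probe was lowest on those same arrays. Ifi213 stood at 6.69 on that array, with the others between 7.32 and 7.43, and Ifne at 5.45, with the others between 4.81 and 4.89. Gbp2b stood at 6.80 on wildtype male 2, with the other wildtype arrays between 9.37 and 9.88. Ifi44l stood at 4.61 on wildtype female 3, with the others between 6.93 and 7.39. Stat3 stood at 10.16 on mutant female 3, with the other mutants between 10.90 and 10.99. Oas2 was high on 1 array of each genotype, at 6.11 on mutant male 2 with the others between 5.52 and 5.60, and at 6.21 on wildtype male 4 with the others between 5.66 and 5.74.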

How the results depend on the processing

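No gene passed between genotypes, within either sex or in the interaction under any alternative run, and none of the 35 genes named by rule passed between genotypes (smallest adjusted p 0.126). The count passing between sexes, 1, was 0 without a filter or with the number as a random block, 2 with the strict filter, 3 with an offset of 50, 5 in the authors' values, and 0 to 2 without single arrays. Bst2 was lost with the random block (adjusted p = 0.0557) and without a filter (adjusted p = 0.0665). Counts at an unadjusted p under 0.05 were added after seeing the data. The 2 genes higher between genotypes became 1 with the replicate block, median scaling, the authors' values, an offset of 50, the strict filter or no sex term. With the replicate block (pairing by number) 19 genes were lower, and no gene passed after adjustment in any contrast fitted with it. The 16 lower genes became 4 without a sex term. Without single arrays these counts ran from 7 to 23 (lower between genotypes), 0 to 3 (higher), 13 to 29 (lower in males), 7 to 19 (interaction) and 17 to 29 (higher in males than females). The effector median became -0.083 without a filter. Without single arrays medians ran from -0.46 to -0.19 for effectors, -0.37 to -0.28 for classical class I, -0.53 to -0.033 for other class I, -0.36 to -0.17 for loading, -0.02 to 0.29 for class II, -0.06 to 0.04 for interferons and receptors and -0.18 to -0.07 for factors. The cause of these shifts was not tested. Among genes that did not pass, H2-Ob changed sign with an offset of 50, and H2-Aa, H2-Bl, H2-Eb1, H2-Eb2, H2-Ob and Ifngr1 without some single arrays. Dim genes near background, such as most interferons, have values with little range.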
